A study of Arabidopsis thaliana with 24 samples.

Results

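The nuclear genes of *Arabidopsis thaliana* for the photosystem core subunits, the electron carriers that join them and the ATP synthase, with 4 genes for cyclic electron flow and assembly (PGR5, PNSL4, LPA2 and ALB3), are described here as 35 loci, taken by locus name from the deposited count table. All 35 were among the 16183 genes of the table. In the thylakoid membrane of the chloroplast, photosystem II splits water at its oxygen-evolving complex and passes electrons through the cytochrome b6f complex to plastocyanin, a copper protein of the lumen. Photosystem I passes them on to ferredoxin, from which ferredoxin-NADP reductase makes NADPH, while the proton gradient drives the ATP synthase. Much of this machinery is encoded in the nucleus and imported, so its transcripts are counted here apart from those of the chloroplast genome.

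The plants were wild-type Columbia-0 (Col-0) seedlings of 7 d, raised on 1% sucrose medium at 21 °C with 16 h of light and 8 h of darkness per day. Controls stood in water for 1 h, and treated seedlings in a solution of salicylhydroxamic acid (SHAM) during 1, 2 or 3 h. SHAM inhibits the mitochondrial alternative oxidase and also acts on lipoxygenases and peroxidases. Shoots and roots were separated after treatment, each replicate pooled 30 to 50 seedlings, and 3 libraries were made per organ and condition by MARS-seq, which counts reads at the 3′ ends of transcripts. The SHAM concentration is 1 mM by the treatment label, but the protocol gives 0.1 mM and also an exposure to 1 mM SHAM with 30% polyethylene glycol, an osmoticum of average molecular weight 8000, so neither the dose nor the presence of the osmoticum is settled. Water was sampled at 1 h alone, so at 2 h and 3 h the treatment and the time in solution cannot be told apart. The time of day of the harvests is unknown.

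The comparisons ask which of these genes changed in the shoot, at which exposure, and whether any change was seen in roots. Levels are counts scaled to a common library size (normalised CPM, with edgeR's TMM factors within an organ), given in the order of replicates 1, 2 and 3. Fold changes are log2 values ± standard error (n = 3 libraries in each group), and a gene was called when edgeR's quasi-likelihood test gave a Benjamini-Hochberg adjusted p under 0.05 over all genes tested. Shoot libraries held 885920 to 3622300 counts and root libraries 862731 to 3485667. All 35 genes passed the low-count filter in shoots (8570 genes tested) and 30 passed it in roots (10642 genes tested).

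The genes behaved as green-tissue genes in the water controls. The 35 genes together held 14.0 ± 1.11% of counts in water shoots (SD, n = 3), against 0.125%, 0.150% and 0.159% in the water root libraries. In water, all 35 were called higher in shoots than in roots, where 25.1% of the 11704 genes tested were called higher. The log2 difference ran from 4.38 ± 0.26 for ALB3 (AT2G28800), the insertase that places antenna proteins in the membrane, to 9.14 ± 1.09 for PSAG (AT1G55670), a membrane subunit of photosystem I. Among the shoot libraries, the counts of chloroplast and mitochondrial genes stood apart in 4, namely SHAM 1 h replicate 3 at 0.419% and the SHAM 2 h libraries at 0.310% to 0.446%, with 1.304% to 1.647% in the other shoot libraries. In bulk tissue, fewer cells of a type and less RNA per cell cannot be told apart.

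After 1 h of SHAM, 11 of the 35 genes were higher in shoots than after 1 h of water and none was lower, against 9.36% of all genes called higher and 7.49% called lower. The 11 genes were PSAD1, PSAD2, PSAE1, PSAK, PSAH2 and PSAO of photosystem I, PSBO2, PSBQ1, PSBTN and PSBS of photosystem II, and the plastocyanin gene PETE1. The median log2 fold change of the 35 genes was 0.37, with 0.05 over all genes tested. At an unadjusted p under 0.05 edgeR gave 14 genes higher and 2 lower, and DESeq2 called 12 higher and 1 lower. The groups did not overlap for 12 genes that were higher with SHAM (16.8% of all genes tested) and 3 that were lower (16.5%). As shares of the library, the 35 genes held 15.7%, 16.1% and 14.5% of counts with SHAM and 14.4%, 14.9% and 12.8% in water, so the ranges of the groups overlapped.

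**Figure D1:**
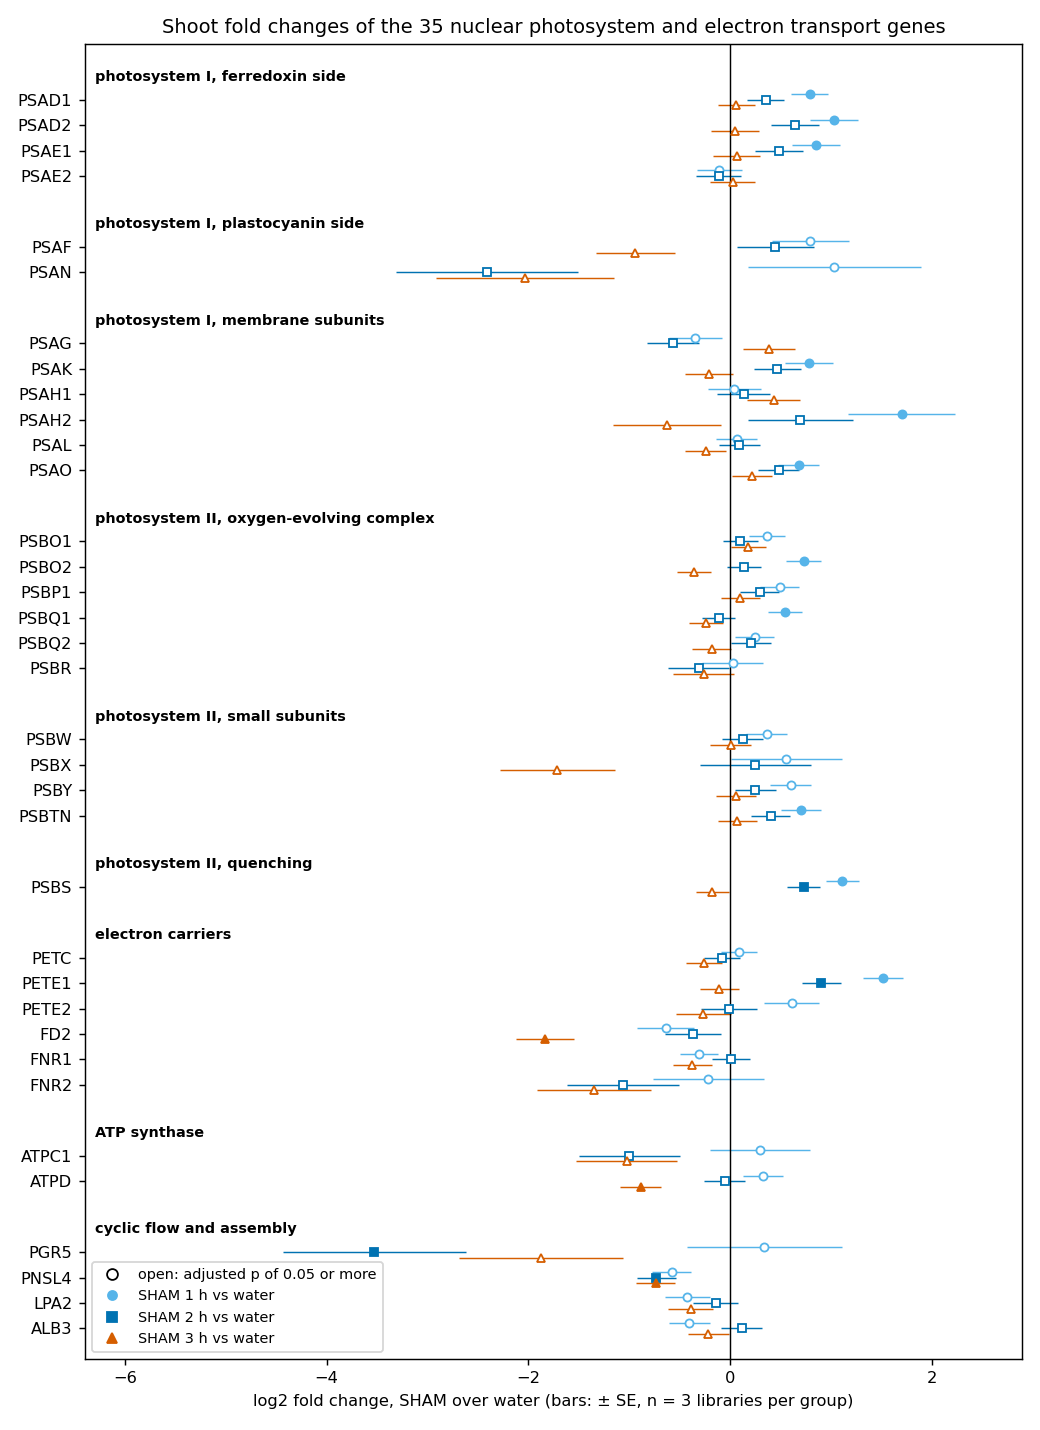
Log2 fold change of each gene in shoots after 1, 2 and 3 h of SHAM over 1 h of water, ordered by role, with the standard error as a bar (n = 3 libraries per group). Filled symbols passed the adjusted p of 0.05 and open symbols did not: filled circles lie to the right of 0 at 1 h, where 11 genes were called, and filled symbols at 3 h lie to the left, where 3 were called.

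The subunits at the ferredoxin side of photosystem I, which form the docking surface for ferredoxin, were 3 of the 11. PSAE1 (AT4G28750) was at 11562, 12560 and 8546 normalised CPM after 1 h of SHAM, against 6306, 6955 and 4866 in water. Every SHAM library was above every water library, and the log2 fold change was 0.85 ± 0.24 (edgeR adjusted p = 0.0245). Its paralog PSAE2 (AT2G20260) was at 2031, 2416 and 1983 with SHAM and 2267, 2602 and 2066 in water, with overlapping groups and a log2 fold change of -0.11 ± 0.22 that did not pass the test.

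PSAD2 (AT1G03130) was at 1943, 2766 and 2203 normalised CPM with SHAM, against 864, 1218 and 1296 in water (1.03 ± 0.24, edgeR adjusted p = 0.00866). Its paralog PSAD1 (AT4G02770) was at 4851, 6479 and 5419 with SHAM and 2907, 3464 and 3300 in water, a log2 fold change of 0.79 ± 0.18. In both, all SHAM libraries lay above all water libraries. PSAD provides the main docking site for ferredoxin.

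Of the 6 membrane subunits of photosystem I, 3 were higher. PSAK (AT1G30380), which lies beside the light-harvesting antenna, was at 10695, 12061 and 10004 normalised CPM with SHAM and 6832, 7056 and 5142 in water (0.78 ± 0.24, edgeR adjusted p = 0.0355). PSAO (AT1G08380), a subunit linked with the docking of mobile antenna, was at 4608, 6713 and 4748 with SHAM and 2931, 3827 and 3273 in water (0.68 ± 0.20, edgeR adjusted p = 0.0332). Neither gene's groups overlapped.

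PSAH2 (AT1G52230) had the highest log2 fold change of the 11, 1.70 ± 0.53 (edgeR adjusted p = 0.0407), but its libraries overlapped. It was at 273, 207 and 70.7 normalised CPM with SHAM and 81.2, 61.8 and 27.5 in water. The low SHAM library, replicate 3, was also the largest of its group, and within each shoot group the level of PSAH2 was highest in the smallest library. PSAH1 (AT3G16140), its paralog, was at 1086, 1588 and 1395 with SHAM and 916, 1515 and 1523 in water and was not called. PSAL (AT4G12800) and PSAG were not called either, with log2 fold changes of 0.07 ± 0.20 and -0.34 ± 0.26.

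The plastocyanin-side subunits PSAF and PSAN, where plastocyanin delivers its electron, were not called. PSAF (AT1G31330) was at 462, 334 and 234 normalised CPM with SHAM and 268, 213 and 114 in water. PSAN (AT5G64040) was at 2832, 1320 and 157 with SHAM and 1101, 790 and 212 in water. For PSAN the SHAM libraries spanned an 18.1-fold range, which took in every water library.

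Of the 6 subunits of the oxygen-evolving complex, PSBO2 and PSBQ1 were higher. PSBO2 (AT3G50820), a form of the manganese-stabilising protein, was at 4612, 5170 and 4402 normalised CPM with SHAM and 3033, 3173 and 2351 in water (0.73 ± 0.17, edgeR adjusted p = 0.00974). The other form, PSBO1 (AT5G66570), was at 7552, 10800 and 10554 with SHAM and 7252, 8085 and 7092 in water (0.37 ± 0.17, edgeR adjusted p = 0.176). PSBO2 libraries did not overlap between groups and PSBO1 libraries did.

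PSBQ1 (AT4G21280) was at 2984, 3760 and 2939 normalised CPM with SHAM and 2092, 2432 and 2115 in water (0.54 ± 0.17, edgeR adjusted p = 0.0376), the smallest of the called changes. PSBQ2 (AT4G05180) was at 3271, 3286 and 2863 with SHAM and 2515, 2959 and 2478 in water and was not called. PSBP1 (AT1G06680) and PSBR (AT1G79040), the other proteins of the complex, had log2 fold changes of 0.49 ± 0.19 and 0.02 ± 0.30, and neither was called.

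PSBTN (AT3G21055), a small subunit of photosystem II, was at 7467, 9121 and 8324 normalised CPM with SHAM and 4603, 5937 and 4753 in water (0.70 ± 0.19, edgeR adjusted p = 0.0236). The other small subunits PSBW (AT2G30570), PSBX (AT2G06520) and PSBY were not called, with log2 fold changes of 0.36 ± 0.21, 0.56 ± 0.55 and 0.60 ± 0.20. PSBY (AT1G67740) did not overlap between groups, although its edgeR adjusted p was 0.0574.

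PSBS and PETE1 gave the changes with the smallest adjusted p. PSBS (AT1G44575), the lumen pH sensor that switches on the dissipation of excess light energy as heat, was at 3775, 3870 and 3537 normalised CPM with SHAM and 1814, 1846 and 1516 in water (1.11 ± 0.16, edgeR adjusted p = 0.000373). PETE1 (AT1G76100) was at 482, 488 and 432 with SHAM and 132, 173 and 183 in water (1.52 ± 0.20, edgeR adjusted p = 0.000137). The lowest SHAM library was well above the highest water library for both genes, and both remained called with each library left out in turn.

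PETE2 (AT1G20340), the other plastocyanin gene, was at 22946, 24003 and 15490 normalised CPM with SHAM and 16248, 14579 and 10054 in water, with overlapping groups and a log2 fold change of 0.61 ± 0.27 that was not called. PETC (AT4G03280), the Rieske protein of the cytochrome b6f complex, was at 2962, 3611 and 3621 with SHAM and 3064, 3684 and 2863 in water. FNR1 (AT5G66190) and FNR2 (AT1G20020), the leaf forms of ferredoxin-NADP reductase, had log2 fold changes of -0.31 ± 0.19 and -0.22 ± 0.55. The ATP synthase subunits ATPC1 (AT4G04640) and ATPD had 0.30 ± 0.49 and 0.33 ± 0.20, and none of these genes was called.

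The count of 11 depended on the libraries and the fit. It was 4 without SHAM replicate 2, 6, 7 and 4 without water replicates 1, 2 and 3, and 0 when the 24 libraries of both organs were fitted together, where edgeR gave 5 genes at an unadjusted p under 0.05. That joint fit included root SHAM 1 h replicate 1, in which shoot transcripts were found (below). It was not run for this comparison without that library, whose part was not tested. PSAD1, PSBS and PETE1 kept their call in all 6 fits that left out a compared library, PSAD2 and PSBO2 in 5, and each of the other 6 genes in 1 or 2. Without the 4 libraries with a low organelle share, 10 of the 11 were still called, PSBQ1 being the exception, and 1 gene was lower. Scaling by library size alone moved the median log2 change of all genes by -0.24 and called 7 of the 35 higher and 4 lower.

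The sequences upstream of 4 genes are shown because PSAD1 and PSAK rose at 1 h and hold an I-box, PSBS rose and holds none of the motifs searched, and PSBQ2 holds all of them and was not called. Each is the 250 bases before the RefSeq gene start in TAIR10.1 and overlaps no other protein-coding gene of that annotation. Other gene types were not checked. Each is printed 5′ to 3′ on the gene's strand, with motif matches on either strand in capitals. They lie at chr4:1230165-1230414 (PSAD1, minus strand), chr1:10721933-10722182 (PSAK, plus strand), chr1:16869971-16870220 (PSBS, plus strand) and chr4:2673244-2673493 (PSBQ2, minus strand).
PSAD1: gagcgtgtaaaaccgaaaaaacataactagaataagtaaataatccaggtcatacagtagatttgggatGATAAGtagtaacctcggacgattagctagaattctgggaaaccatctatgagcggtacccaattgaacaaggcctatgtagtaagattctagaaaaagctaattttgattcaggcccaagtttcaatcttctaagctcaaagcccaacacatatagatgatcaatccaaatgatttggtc
PSAK: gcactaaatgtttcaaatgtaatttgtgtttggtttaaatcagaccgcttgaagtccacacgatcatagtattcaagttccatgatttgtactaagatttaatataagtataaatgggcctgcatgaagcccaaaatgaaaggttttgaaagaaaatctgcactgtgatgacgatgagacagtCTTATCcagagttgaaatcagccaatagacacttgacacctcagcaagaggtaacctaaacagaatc
PSBS: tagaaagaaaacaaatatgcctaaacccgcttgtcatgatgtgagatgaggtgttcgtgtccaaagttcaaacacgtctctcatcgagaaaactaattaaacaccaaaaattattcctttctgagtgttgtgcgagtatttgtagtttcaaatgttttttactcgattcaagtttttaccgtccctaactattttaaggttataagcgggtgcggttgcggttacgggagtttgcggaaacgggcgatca
PSBQ2: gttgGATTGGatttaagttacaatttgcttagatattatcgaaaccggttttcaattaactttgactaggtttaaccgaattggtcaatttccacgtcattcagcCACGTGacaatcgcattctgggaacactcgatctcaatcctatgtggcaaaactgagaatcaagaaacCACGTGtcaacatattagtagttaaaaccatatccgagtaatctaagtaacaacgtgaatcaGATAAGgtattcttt

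The motifs searched were the G-box CACGTG, the I-box GATAAG and the CAAT-type element CCAATC, each on both strands, none of which overlaps another in these windows. A G-box was found before 6 of the 35 genes (17.1%) and before 6.49% of 27443 nuclear protein-coding genes. An I-box was found before 8 (22.9%), against 12.3% of all, and CCAATC before 4 (11.4%), against 10.2%. Of the 11 genes called at 1 h, 3 held a G-box and 3 an I-box, and of the 24 not called, 3 held a G-box and 5 an I-box, while CCAATC was before 0 of the 11 and 4 of the 24. A match is given as a description of the letters alone.

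**Figure D2:**
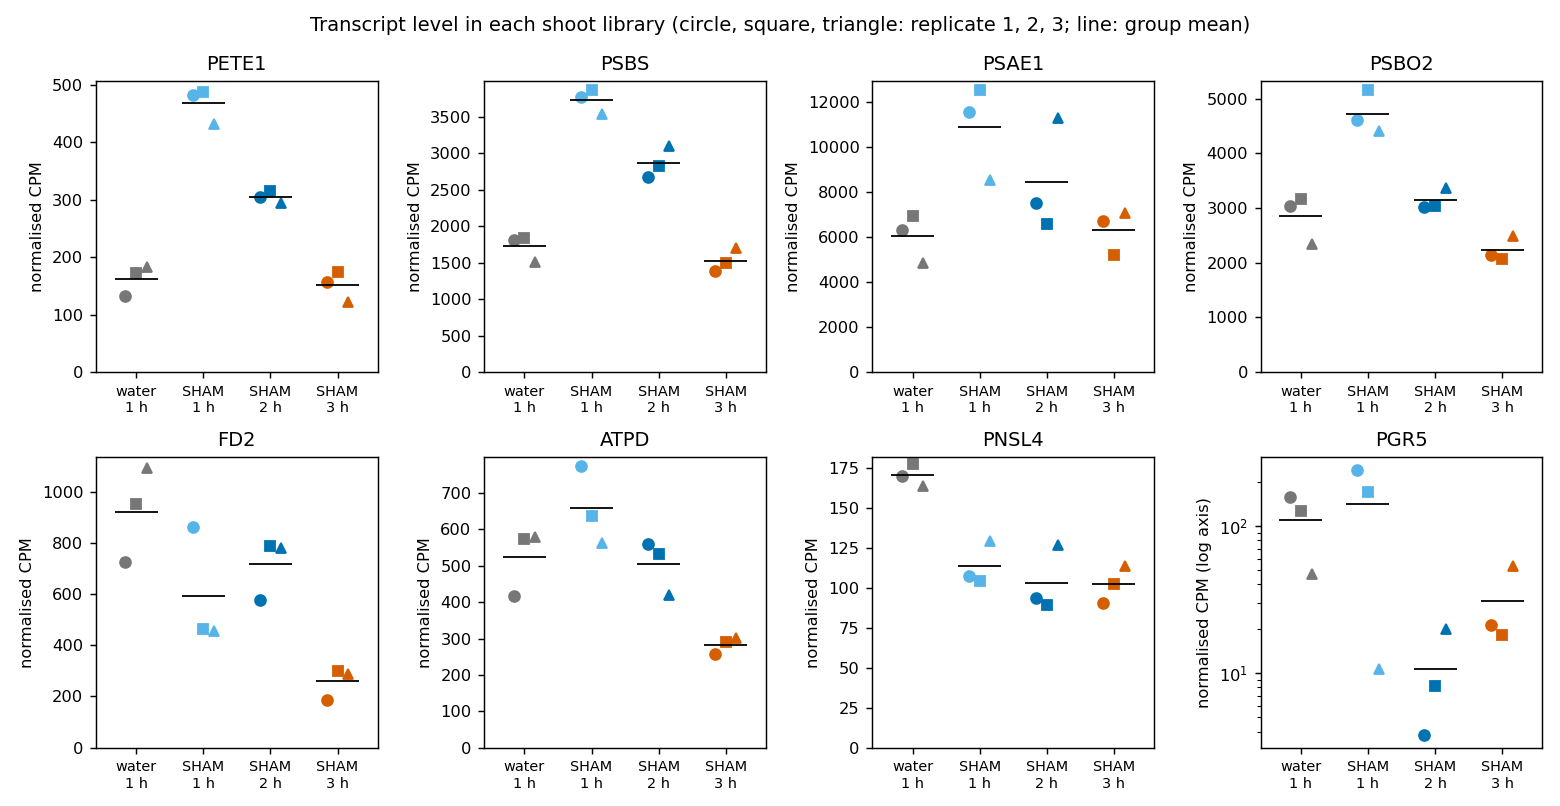
Normalised CPM of 8 genes in each shoot library, with the line at the group mean (n = 3), on linear axes from 0 except for PGR5, which has a log axis. PETE1 and PSBS are high at 1 h, intermediate at 2 h and overlapping water at 3 h, while FD2 and ATPD sit below every water library at 3 h.

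After 2 h, PETE1 and PSBS were still higher than in water and PGR5 and PNSL4 were lower, which is 4 of 35 genes where 8.38% of all genes were called higher and 7.44% lower. PETE1 was at 304, 316 and 294 normalised CPM with SHAM, against 132, 173 and 183 in water (0.90 ± 0.19, edgeR adjusted p = 0.00613). PSBS was at 2676, 2825 and 3096 with SHAM, against 1814, 1846 and 1516 in water (0.73 ± 0.16, edgeR adjusted p = 0.00768). In both genes every SHAM library was above every water library. The median log2 fold change of the 35 genes was 0.11.

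PGR5 (AT2G05620), a protein needed for cyclic electron flow around photosystem I, was at 3.82, 8.15 and 20.0 normalised CPM after 2 h of SHAM, against 157, 127 and 47.1 in water. The groups did not overlap, and the log2 fold change was -3.53 ± 0.91 (edgeR adjusted p = 0.0172). These levels rested on 13, 22 and 24 counts with SHAM and 216, 191 and 197 in water. The 3 SHAM 2 h libraries are among the 4 with a low share of organelle counts, and the fourth of these, SHAM 1 h replicate 3, had 10.6 normalised CPM of PGR5, beside 240 and 171 in SHAM 1 h replicates 1 and 2. The part of the organelle share in this difference was not tested.

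PNSL4 (AT4G39710), a lumen-side subunit of the chloroplast NADH dehydrogenase-like complex, was at 93.7, 88.9 and 127 normalised CPM after 2 h of SHAM, against 170, 177 and 164 in water (-0.73 ± 0.19, edgeR adjusted p = 0.0198). At 1 h it was at 107, 104 and 129 with SHAM, a log2 fold change of -0.58 ± 0.19 (edgeR adjusted p = 0.0557), below every water library but not called. The 2 calls of lower genes at 2 h were lost without SHAM 2 h replicate 1 or 2, or without water replicate 1, and that of PNSL4 also without water replicate 2. All SHAM 2 h libraries are among the low-organelle ones, so no value without them can be given. PSAN was at 64.0, 85.9 and 250 with SHAM at 2 h, against 1101, 790 and 212 in water, with a log2 fold change of -2.41 ± 0.90 that was not called.

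After 3 h, 3 of the 35 genes were lower than in water and none was higher, where 2.68% of all genes were called lower and 6.31% higher. edgeR gave 8 lower and 0 higher at an unadjusted p under 0.05, and DESeq2 called 4 lower and 0 higher. FD2 (AT1G60950), the major leaf ferredoxin, was at 188, 300 and 289 normalised CPM with SHAM and 724, 950 and 1091 in water (-1.83 ± 0.29, edgeR adjusted p = 0.000905). The highest SHAM library was below the lowest water library, and the call held with each library left out and in every other fit run. At 1 h FD2 had been at 862, 465 and 454 with SHAM and at 2 h at 578, 788 and 781, and was called at neither.

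ATPD (AT4G09650), the delta subunit of the ATP synthase, was at 257, 291 and 302 normalised CPM after 3 h of SHAM and 418, 574 and 579 in water (-0.89 ± 0.20, edgeR adjusted p = 0.0134). PNSL4 was at 90.2, 103 and 114 with SHAM, against 170, 177 and 164 in water (-0.74 ± 0.19, edgeR adjusted p = 0.0278). Both sets of groups were apart. Without SHAM 3 h replicate 1, or without water replicate 2 or 3, FD2 alone remained called, and PNSL4 lost its call without any of the compared libraries. Without the 4 low-organelle libraries 5 genes were called lower, these 3 among them.

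The 11 genes called at 1 h were not called at 3 h. PETE1 was at 157, 174 and 122 normalised CPM after 3 h of SHAM, against 132, 173 and 183 in water (-0.11 ± 0.19), and PSBS was at 1393, 1495 and 1699, against 1814, 1846 and 1516 in water (-0.17 ± 0.16). PSAE1 was at 6696, 5199 and 7057, against 6306, 6955 and 4866 in water (0.06 ± 0.24). The 35 genes together held 13.1%, 11.998% and 13.6% of counts after 3 h of SHAM, against 14.4%, 14.9% and 12.8% in water.

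The changes between exposures were tested directly. From 1 h to 2 h of SHAM, 3 of the 35 genes fell and none rose, where 3.20% of all genes were called lower and 2.71% higher. edgeR gave 9 lower and 1 higher at an unadjusted p under 0.05, and DESeq2 called 5 lower and 0 higher. The groups did not overlap for 6 genes that were lower at 2 h (11.3% of all genes tested) and 1 that was higher (11.6%). PSBQ1 was at 2204, 1986 and 1950 normalised CPM at 2 h, against 2984, 3760 and 2939 at 1 h (-0.66 ± 0.17, edgeR adjusted p = 0.0358), and these groups did not overlap. PGR5 (-3.87 ± 0.92, edgeR adjusted p = 0.026) and PSAN (-3.45 ± 0.94, edgeR adjusted p = 0.0455) overlapped between exposures because of SHAM 1 h replicate 3. None of the 3 was called without SHAM 1 h replicate 1 or 2, or without SHAM 2 h replicate 1 or 2, and 1 was called without SHAM 2 h replicate 3. In the fits without a call edgeR gave 5 to 9 genes at an unadjusted p under 0.05.

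From 2 h to 3 h, 6 genes fell and 1 rose, where 4.28% of all genes were called lower and 4.66% higher. PETE1 was at 157, 174 and 122 normalised CPM at 3 h, against 304, 316 and 294 at 2 h (-1.01 ± 0.19, edgeR adjusted p = 0.00627). PSBS was at 1393, 1495 and 1699 at 3 h, against 2676, 2825 and 3096 at 2 h (-0.91 ± 0.16, edgeR adjusted p = 0.00452). FD2 was at 188, 300 and 289 at 3 h, against 578, 788 and 781 at 2 h (-1.47 ± 0.28, edgeR adjusted p = 0.0063). In these 3 genes no 3 h library reached any 2 h library, and the calls held with each library left out.

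ATPD fell as well, at 257, 291 and 302 normalised CPM at 3 h, against 559, 533 and 420 at 2 h (-0.83 ± 0.20, edgeR adjusted p = 0.0223), without overlap. PSAF was at 59.1, 92.8 and 159 at 3 h, against 193, 275 and 341 at 2 h (-1.39 ± 0.39, edgeR adjusted p = 0.0415), with no overlap. PSBX, a small subunit of photosystem II, was at 45.1, 45.0 and 170 at 3 h, against 157, 318 and 524 at 2 h (-1.97 ± 0.57, edgeR adjusted p = 0.0477), and its groups overlapped.

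PSAG was the gene that rose between 2 h and 3 h. It was at 5913, 5863 and 3479 normalised CPM at 3 h, against 2886, 2976 and 2032 at 2 h, with every 3 h library above every 2 h library (0.95 ± 0.26, edgeR adjusted p = 0.0387). The count of 7 was 4, 3 and 4 without SHAM 2 h replicates 1, 2 and 3, and 3 without SHAM 3 h replicate 1 or 2. PSAF and PSAG kept their call in 1 of these 6 fits, and PSBX and ATPD in 2. The count was 0 in the joint fit of both organs, which included root SHAM 1 h replicate 1 with its shoot transcripts. There edgeR gave 2 genes at an unadjusted p under 0.05.

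Of the 35 genes, 14 form 7 pairs that encode closely related proteins, so the share of a pair held by a member could be followed without scaling between libraries. The last 300 bases of the longest annotated transcript of each member were aligned end to end. The members of a pair were 49.1% to 56.7% identical, and no run of matches in the alignment was longer than 20 bases. Shared stretches outside the alignment and the positions of the reads were not measured. How reads that fit both members were counted is not stated, so the shares keep that uncertainty, and they are given as descriptions without a test.

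PSAE1 held 73.6%, 72.8% and 70.2% of the PSAE1 and PSAE2 counts in water, 85.1%, 83.9% and 81.2% after 1 h of SHAM, 80.7%, 79.2% and 79.7% after 2 h and 71.6%, 73.7% and 73.4% after 3 h. The libraries at 1 h and 2 h were all above those in water and at 3 h. PSBO1 held 72.5 ± 2.37% of its pair in water, 66.8 ± 4.31% after 1 h of SHAM, 71.9 ± 1.19% after 2 h and 79.1 ± 3.18% after 3 h (SD, n = 3). The 3 h libraries of PSBO1, at 75.4% to 81.2%, were above every water library, at 70.5% to 75.1%.

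PETE1 held 1.26 ± 0.50% of the plastocyanin counts in water, 2.25 ± 0.40% after 1 h of SHAM, 2.36 ± 0.73% after 2 h and 1.41 ± 0.59% after 3 h (SD, n = 3), so that PETE2 supplied nearly all plastocyanin counts throughout. PSBQ1 held 50.6 ± 2.83% of its pair after 1 h of SHAM and 45.5 ± 0.48% in water, without overlap. PSAD1 held 70.9 ± 0.69% after 1 h of SHAM and 74.3 ± 2.66% in water, also without overlap. The shares of PSAH1 (79.9% to 95.2% after 1 h of SHAM, 91.8% to 98.2% in water) and FNR1 (92.2% to 97.3% after 1 h of SHAM, 93.7% to 98.2% in water) overlapped.

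**Figure D3:**
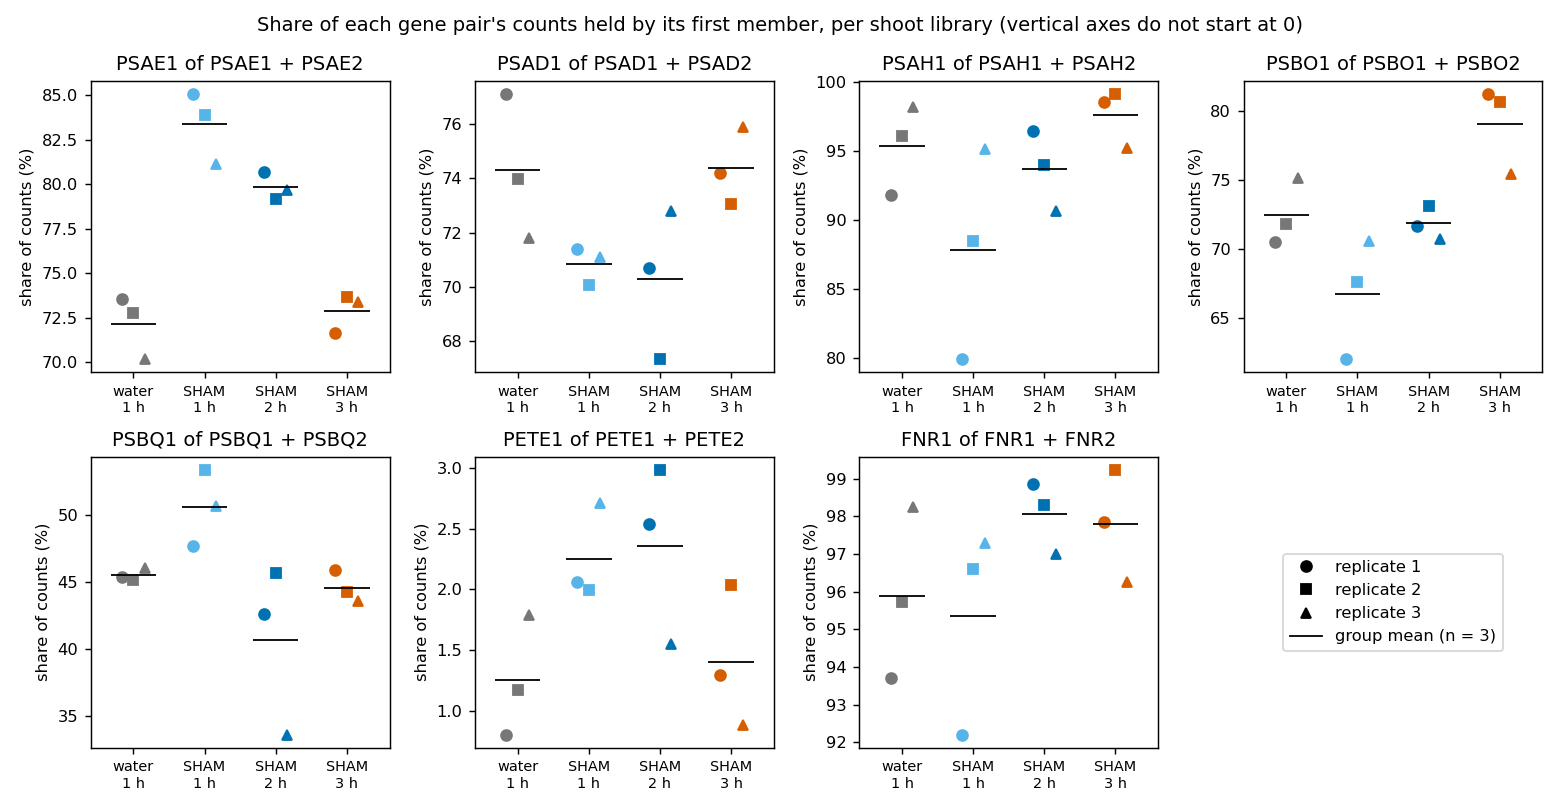
Share of each pair's counts held by its first-named member in each shoot library, in percent, with the line at the group mean (n = 3). The panel for PSAE1 shows the 1 h and 2 h libraries at 79.2% to 85.1%, above all water and 3 h libraries at 70.2% to 73.7%.

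Some of the 35 genes varied among replicates in step with library size, a pattern that was noticed after the values were seen and is given without a test. In each of the 4 shoot groups the smallest library (SHAM 1 h replicate 1, SHAM 2 h replicate 3, SHAM 3 h replicate 3 and water replicate 1) gave the highest level of PSAF, PSAN, PSAH2, PSBX, FNR2, ATPC1 and PGR5. That is 7 of 35 genes (20.0%), against 11.6% of all genes tested. PSAD1, PSAD2, PSAG, PSAH1 and PSBY were lowest in the smallest library of every group, which is 14.3%, against 8.86% of all genes tested. Within SHAM 1 h the highest PGR5 library was 22.7 times the lowest, while for PSBS the ratio was 1.09 and for PETE1 1.13. The part of library size in the calls of PSAH2, PSAN, PGR5, PSAF and PSBX was not tested.

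**Figure D4:**
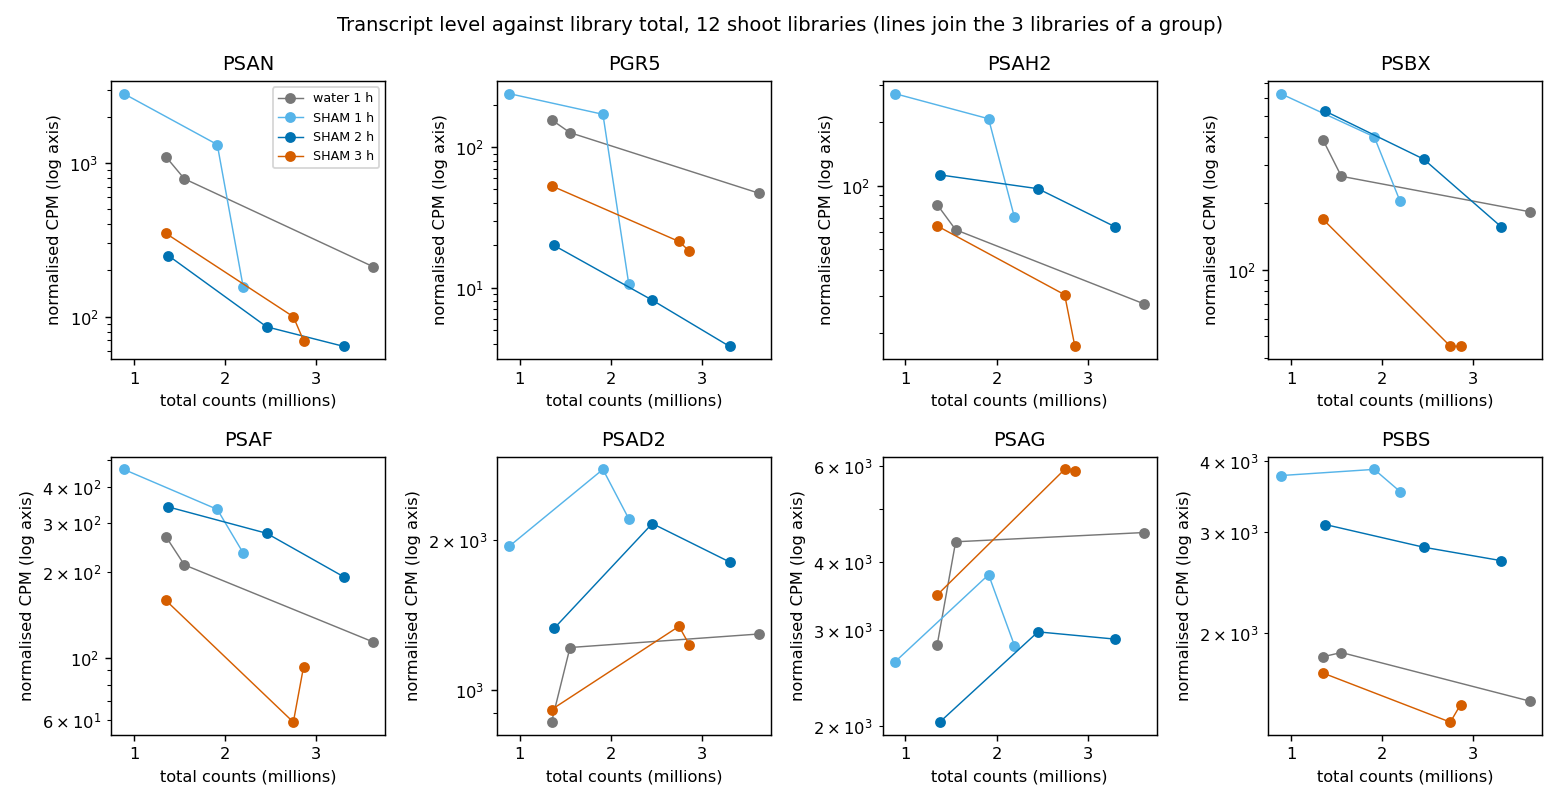
Normalised CPM of 8 genes (log axis) against the total counts of the library, in units of 1e6 counts, with lines joining the 3 libraries of a shoot group. PSAN, PGR5, PSAH2, PSBX and PSAF are highest in the smallest library of every group and PSAD2 and PSAG are lowest there, while PSBS keeps its groups at 1 h and 2 h above water at any total.

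Genes of the same pathway outside the 35 were counted in lists drawn up with earlier results of these data known. Over all genes tested in shoots against water, 9.36% were called higher at 1 h, 8.38% at 2 h and 6.31% at 3 h. Called lower were 7.49%, 7.44% and 2.68%. Among 20 antenna proteins, which feed both photosystems, 11 were higher and 1 was lower at 1 h, with a median log2 fold change of 1.02. LHCB2.3 had 4.52 ± 0.28, LHCB2.1 had 4.41 ± 0.31 and LHCB2.2 had 4.16 ± 0.32, all of them subunits of the trimeric antenna of photosystem II. The antenna gene lower at 1 h was LHCA6 (-1.30 ± 0.26), a linker of the NADH dehydrogenase-like complex to photosystem I. At 2 h 9 of the 20 were higher and 1 was lower, with a median log2 fold change of 0.47. At 3 h 1 was called, again LHCA6, which was lower (-1.19 ± 0.25).

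FD1, a minor leaf ferredoxin, was higher at 1 h (1.55 ± 0.17, edgeR adjusted p = 3.5e-05), where FD2 was at -0.64 ± 0.28 and not called. Whether the ferredoxin genes differed from each other was not tested. It belongs to a list of 20 tested nuclear thylakoid subunits, of which 2 were higher and 4 lower at 1 h, 1 higher and 6 lower at 2 h and 6 lower at 3 h. Among the lower ones were NDHL (-2.50 ± 0.60 at 2 h), NDHN (-2.23 ± 0.46 at 2 h and -1.68 ± 0.44 at 3 h) and NDHM (-2.23 ± 0.69 at 2 h and -3.21 ± 0.75 at 3 h), subunits of the same complex as PNSL4. NDHM rested on a mean of 2.32 CPM with SHAM at 3 h, against 17.9 in water. At 1 h PNSB2 of that complex was called higher (0.93 ± 0.22). Its subunits PNSL2 (-1.12 ± 0.30), NDHO (-0.92 ± 0.24) and PNSB3 (-0.79 ± 0.21) were called lower at 1 h.

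Of 31 assembly and repair factors tested, 2 were lower at 1 h, 3 lower at 2 h and 1 lower at 3 h. Those counts are near the shares of all genes called lower, 7.49%, 7.44% and 2.68%. TAP38, the phosphatase that returns mobile antenna to photosystem II, was at -1.32 ± 0.20 at 1 h. Of 14 genes for chlorophyll synthesis and its GLK regulators, 4 were higher at 1 h, among them CHLI1 (1.71 ± 0.53) and CHLH (1.505 ± 0.30), subunits of magnesium chelatase, and CRD1 (1.69 ± 0.42), a subunit of the cyclase that closes the last ring of the pigment, and 3 were higher at 2 h. At 3 h 2 of these genes were lower.

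The chloroplast-encoded thylakoid subunits moved otherwise: of 16 tested, 1 was lower at 1 h and 13 were lower at 2 h. Their median log2 fold change was -3.08 at 2 h and -0.34 at 3 h, and at 2 h that of the 35 nuclear genes was 0.11. All SHAM 2 h libraries are low-organelle ones, in which the mitochondrial genes were low too. Chloroplast genes held 0.112% to 0.197% of counts and mitochondrial genes 0.173% to 0.249% in the SHAM 2 h libraries, against 0.650% to 0.846% and 0.654% to 0.764% in water. SHAM 1 h replicate 3 had 0.127% and 0.292%, beside 0.674% to 0.783% and 0.787% to 0.864% in the other SHAM 1 h libraries. The part of these libraries in the fall at 2 h was not tested. The nuclear genes' share of counts with organelle genes left out was 13.5%, 13.0% and 14.9% in the SHAM 2 h libraries and 14.6%, 15.1% and 13.0% in the water libraries. Of 5 mesophyll markers, 4 had a log2 fold change below 0 at 1 h (median of the 5, -0.33). CA2 was called lower (-1.03 ± 0.18) and RCA, the remaining one, was called higher (0.91 ± 0.21).

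The shoot libraries held few counts of root cell markers, whose summed level was 51.2 to 65.5 CPM of the library total after 1 h of SHAM and 53.8 to 70.3 CPM in water, beside 3973 to 4994 CPM in the water roots. Of 11 such markers in the table, PRP3, COBL9, PRP1, RHS13, PRX73 and HRGP1 had 0 counts in the shoots after 1 h of SHAM, and COBL9, PRP1, RHS13 and HRGP1 in water. Summed mesophyll markers were at 19560 to 22120 CPM after 1 h of SHAM and 22810 to 35990 CPM in water, and shoot epidermis markers were at 4467 to 7928 CPM after 1 h of SHAM and 2912 to 3110 CPM in water. The last of these was carried by LTP1 (1.46 ± 0.30 at 1 h), and its part in the 1 h result was not tested. The guard cell markers in the table, FAMA and HT1, were at 14.7 to 27.8 CPM after 1 h of SHAM and 27.4 to 43.3 CPM in water, and vascular markers at 66.6 to 131 CPM after 1 h of SHAM and 109 to 158 CPM in water.

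In roots the 35 genes held 0.0851% to 0.298% of counts in 11 libraries and 1.64% in root SHAM 1 h replicate 1 (Wilson 95% interval 1.62% to 1.65%, counting error only). In the same library the summed mesophyll markers were at 4327 CPM, beside 75.6 and 96.4 CPM in the other root SHAM 1 h libraries, so this root library held shoot transcripts. Summed shoot epidermis markers ran from 53.9 to 683 CPM over the group, with a median of 65.9 CPM. PETE2, for example, was at 1768 normalised CPM in it and 80.8 and 102 in root SHAM 1 h replicates 2 and 3, with 70.3, 108 and 99.9 in water.

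**Figure D5:**
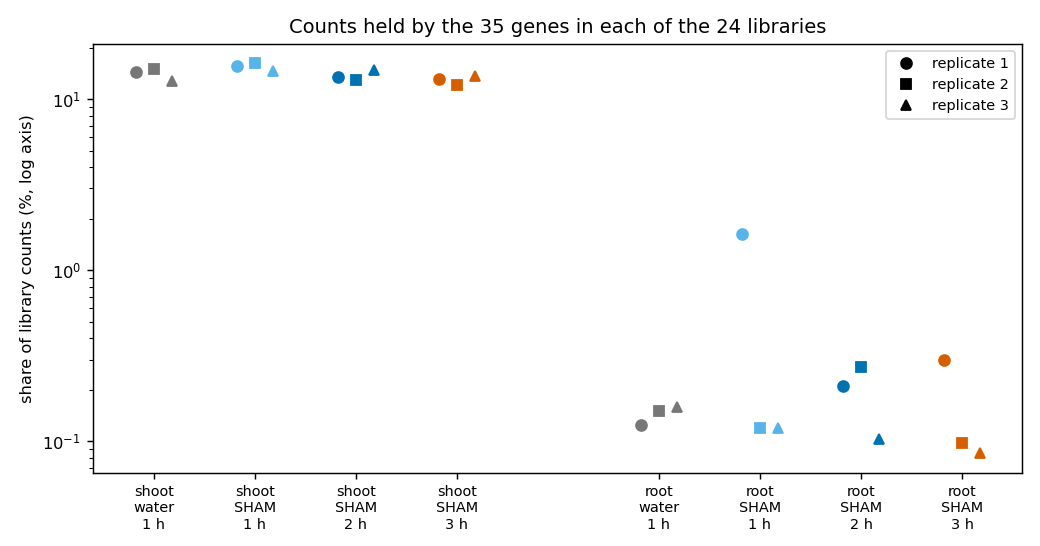
Share of counts held by the 35 genes in each of the 24 libraries, in percent on a log axis, by organ, condition and replicate. Shoot libraries lie at 11.998% to 16.1%, and root SHAM 1 h replicate 1 stands at 1.64%, above the other root libraries at 0.0851% to 0.298%.

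At 1 h in roots, PSAD1, PSAD2, PSBY and FNR1 were called higher, 4 of the 30 genes tested where 7.01% of all genes were called higher and 5.22% lower. Without replicate 1 of root SHAM 1 h 1 gene was called, lower. Without SHAM replicate 2 or 3 of that group 21 were called, and without any of the water replicates 0 were, with 19 to 22 at an unadjusted edgeR p under 0.05. PSAD2 had 522 counts in replicate 1 and 31 and 13 in replicates 2 and 3, with 9, 5 and 16 in water.

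At 2 h and 3 h in roots 1 gene each was higher, and none was lower, against 8.6% and 9.99% of all genes called higher and 5.4% and 6.4% called lower. DESeq2 also called 1 higher and 0 lower at each, and edgeR gave 0 lower at an unadjusted p under 0.05. LPA2 (AT5G51545), an assembly factor of photosystem II, was at 17.6, 20.3 and 16.4 normalised CPM after 2 h of SHAM, against 6.63, 9.25 and 7.79 in water (1.22 ± 0.37, edgeR adjusted p = 0.043). ALB3 was at 50.9, 48.8 and 48.6 after 3 h of SHAM, against 29.2, 23.6 and 27.0 in water (0.88 ± 0.27, edgeR adjusted p = 0.0352). Neither gene's groups overlapped, but no gene of the 30 was called at either exposure when any of the compared libraries was left out, where edgeR gave 1 or 2 genes at an unadjusted p under 0.05. Of 11 root cell markers, 9 were called lower with SHAM in roots at 1 h, 10 at 2 h and 8 at 3 h, with median log2 fold changes of -2.06, -2.99 and -2.78. Their summed level was 3973 to 4994 CPM of the library total in water, 1981 to 2068 after 1 h of SHAM, 1345 to 1915 after 2 h and 1358 to 1831 after 3 h, and their part in the root results was not tested. In shoots ALB3 was at 278, 259 and 227 after 3 h of SHAM and 248, 333 and 306 in water, and was not called.

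The authors' deposited table of shoot comparisons, which gives the log2 ratio of water over SHAM, had no gene of the 35 with an adjusted p under 0.05 at 1 h. In the authors' deposited table PETE1 had -1.48 (adjusted p = 0.413) and PSBS -1.07 (adjusted p = 0.688) at 1 h. The authors' deposited table had FD2 at 1.90 (adjusted p = 0.00461) at 3 h, PGR5 at 3.40 (adjusted p = 0.00963) at 2 h, and PNSL4 at 0.75 (adjusted p = 0.0155) at 2 h and 0.80 (adjusted p = 0.0131) at 3 h, all lower with SHAM. No other gene of the 35 passed there against water. PETE1 (adjusted p = 0.692) and PSBS (adjusted p = 0.816) at 2 h and ATPD (adjusted p = 0.41) at 3 h did not pass in the authors' deposited table. Between exposures the authors' deposited table had PGR5 alone lower at 2 h than at 1 h (adjusted p = 0.00864). FD2 alone was lower at 3 h than at 2 h in the authors' deposited table (adjusted p = 0.0479).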

How the data were processed

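Counts per gene for 24 MARS-seq libraries (3 per organ and condition) were used as deposited, whole and not normalised. Per the submitters' processing notes the tools were STAR 2.4.2a, HTSeq, cutadapt, bcl2fastq and DESeq2. The collapsing of molecular identifiers, the counting strand and the genome build are not given in the sources used here, so reads of overlapping or antisense genes cannot be separated. The authors also deposited log2 fold changes and adjusted p-values for their own comparisons.

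The 35 genes, the other lists and the tests were chosen with earlier results of these data known. All 35 may be named. Full statistics were given to the 5 highest and 5 lowest changes called in a shoot comparison, and values per library to these, to the gene pairs and to PETC, FD2, PSBS, PGR5 and ALB3. From each other list at most 3 called genes with the largest change and a mean of at least 10 CPM were named. Values per library of PSAF and PSAN at 1 h, of PSAN at 2 h, of PNSL4 at 1 h and of PETE2 and PSAD2 in roots were added after they were seen. NDHO, PNSB3 and LHCA6 at 1 h were also named after their values were seen, beyond the 3 per list.

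Counts were tested in R 4.3.3 with edgeR 4.0.16 (filterByExpr with min.count 10 and min.total.count 15, TMM scaling, quasi-likelihood test, Benjamini-Hochberg adjustment). The 12 libraries of an organ were fitted together, and all 24 for the organ comparison. A standard error is the size of the log2 fold change divided by the root of the F statistic. Replicates are separate pools of seedlings, per the labels. The alternatives run were DESeq2 1.42.0, a replicate block, scaling by median-ratio factors or by totals alone, no low-count filter, fits of 6 or 24 libraries and each library left out. Leaving out the shoot-containing root library or the 4 shoot libraries with a low organelle share was added after seeing the data. On simulated counts for SHAM 1 h against water in shoots (8200 genes), the test found 17 of 98 simulated 2-fold changes, 71 of 97 simulated 4-fold changes and 6 false ones. Promoters and transcript ends were read from the TAIR10.1 genome and its RefSeq annotation, matched by locus for 35 genes. Figures were drawn with matplotlib 3.10.9.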

Additional observations from a re-analysis of the deposited data

Results flagged for a closer look

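In shoots 10 values differed between SHAM exposure times, by edgeR's quasi-likelihood test of the later exposure against the earlier (Benjamini-Hochberg adjusted p under 0.05). The exposures are separate pools of seedlings, and with water sampled at 1 h alone, a change in the effect of SHAM and the time in solution cannot be told apart. From 1 h to 2 h the log2 differences were -3.45 for PSAN, -0.66 for PSBQ1 and -3.87 for PGR5. From 2 h to 3 h they were -1.39 for PSAF, 0.95 for PSAG, -1.97 for PSBX, -0.91 for PSBS, -1.01 for PETE1, -1.47 for FD2 and -0.83 for ATPD. PSAN, PGR5, PSAF and PSBX are also genes whose highest library was the smallest of every shoot group, and PSAG was lowest there. The part of library size in these differences was not tested. Of these genes, the authors' deposited table had an adjusted p under 0.05 for PGR5 and FD2 alone.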

How the results depend on the processing

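No fold change of a called gene changed direction under any alternative run: 802 of 976 refitted values stayed past the threshold and 174 lost it. The 976 values include those of the water shoot against water root comparison, where all 35 genes kept their call in every refit. All 174 losses were therefore in the SHAM comparisons, where the share of calls kept was lower than these totals give. With organelle genes left out of the total, each group's mean share of counts held by the 35 genes moved by less than 1 SD. Leaving out 1 of 3 libraries cannot move a mean by 1 SD, so that check cannot tell how stable the shares are. At 1 h in shoots the count of 11 called genes was 6 with a replicate block and 0 with all 24 libraries (5 at an unadjusted edgeR p under 0.05). At 2 h it was 1 with all 24 libraries. At 3 h it was 5 with 6 libraries, 1 with all 24 and 5 without the 4 shoot libraries with a low organelle share. For 2 h against 1 h it was 5 with DESeq2, 0 with the block, 0 with 6 libraries and 1 with all 24 (edgeR gave 7, 7 and 3 genes at an unadjusted p under 0.05). For 3 h against 2 h it was 0 with all 24 (2 unadjusted). In roots at 1 h it was 1 with library size alone, 19 with no filter, 7 with DESeq2, 0 with the block, 0 with 6 libraries (7 and 21 unadjusted) and 22 with all 24. In roots at 2 h it was 0 with library size alone, 0 with the block (1 and 2 unadjusted) and 7 with 6 libraries, and at 3 h 0 with library size alone (0 unadjusted) and 2 with 6 libraries. The fits of all 24 libraries included root SHAM 1 h replicate 1, which held shoot transcripts. No joint fit of the SHAM comparisons was run without it, and the cause of these shifts was not tested. With each library left out the count in shoots was 4 to 11 at 1 h against water. It was 2 to 5 for 2 h against water, 1 to 3 for 3 h against water, 0 to 4 for 2 h against 1 h and 3 to 7 for 3 h against 2 h. In roots the range was 0 to 21 at 1 h, and the count was 0 each time at 2 h and at 3 h. In the organ comparison it was 35 each time.

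The replicate numbers did not pair the samples: over 18 same-numbered pairs of shoot libraries the correlation of deviations ran from -0.586 to 0.626 (median -0.21), and 6 were over 0.1. The block is therefore given as a count alone, and it moved no other count of called genes by over 1.5 times. At these depths the simulated test for SHAM 1 h found few 2-fold changes, but it was not run for the genes described here alone. Among these, PSBQ1 and PSBO2 were called at 1 h with changes below 2-fold. Genes not called with large standard errors, such as PSBX, FNR2 and ATPC1 at 1 h, may have changed by 2-fold. For PSAL, PSBO1 and FNR1 at 1 h, the change and its standard error were both small beside a 2-fold change. PGR5 at 2 h rests on 13 to 24 counts per library.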
